A study of Sus scrofa with 30 samples.

Results

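The miR-200 family was followed in the porcine endometrium, the inner lining of the uterus, across early pregnancy and the estrous cycle. Its members were the sequences in the study's list of annotated small RNA sequences whose name contains the root mir-200a, mir-200b, mir-200c, mir-141 or mir-429 in either case. This rule found 31 sequences, beside 842 others on the list, and the 31 came from 7 miRNA arms: 2 sequences of miR-141-3p, 3 of miR-200a-3p, 5 of miR-200a-5p, 8 of miR-200b-3p, 3 of miR-200b-5p, 7 of miR-200c-3p and 3 of miR-429-3p. The list held only sequences that the study had kept after a minimum of 10 reads in most animals of at least 1 group. They also had to be fully identical to a known pig or other mammalian miRNA or stem-loop sequence. Non-template changes were left aside in the study's isomiR analysis. The 31 are thus not all forms of the family that were sequenced. Of the 31, 30 had reads in every library.

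The tissue came from inseminated or cyclic Hampshire x Duroc gilts of 7 to 8 months from a single commercial herd, and 1 small RNA library was sequenced per animal. Pregnant animals were taken on day 12 (PD12, n = 5), day 16 (PD16, n = 5) and day 20 (PD20, n = 6). Cyclic animals were taken on the same days of the cycle (CD12, n = 4; CD16, n = 5; CD20, n = 5). Up to day 16 the conceptuses were removed by flushing the uterus, whereas the PD20 tissue came from implantation sites after the embryo and trophoblast had been taken off. On every day, D20 included, the stage of pregnancy was judged from the size and form of the conceptuses. The groups thus differed in how the tissue was taken on D20 as well as in status. For D12 the paper's supplement gives n = 4 for pregnant and n = 5 for cyclic animals, the reverse of its methods and the labels, which were followed here. The labels do not give the pool or lane of each library, so a sequencing batch could not be looked at.

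MicroRNAs are short RNAs that guide a protein complex to messenger RNAs, mostly by pairing of bases 2 to 8, the seed. The miR-200 family is made from a pair of gene clusters, miR-200b with miR-200a and miR-429, and miR-200c with miR-141. It is typical of epithelial cells, where it represses ZEB1 and ZEB2, transcription factors that drive cells from an epithelial to a mesenchymal state. The family falls into 2 groups by seed, so its members do not all address the same targets. An isomiR is a variant of a miRNA with other ends, and a change at the 5′ end moves the seed.

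The most abundant sequence of each arm, called form 1, is shown here because the sums and comparisons rest on it. Each is written 5′ to 3′ as DNA letters, in lower case with the seed in capitals. The 3p arms with the seed AATACTG were as follows.
miR-200c-3p form 1: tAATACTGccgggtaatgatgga
miR-200b-3p form 1: tAATACTGcctggtaatgatgac
miR-429-3p form 1: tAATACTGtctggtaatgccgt

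The 3p arms with the seed AACACTG are shown next, because theirs is the other 3p seed.
miR-141-3p form 1: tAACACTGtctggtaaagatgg
miR-200a-3p form 1: tAACACTGtctggtaacgatg
Counted from 1 at the 5′ end, the seeds of the 3p groups differ by the substitution C4T from AACACTG to AATACTG. Over the 21 bases that they share, miR-141-3p and miR-200a-3p differ only by A17C. The 5p arms, from the other strand of the same precursors, share the seed ATCTTAC.
miR-200a-5p form 1: cATCTTACcggacagtgctgga
miR-200b-5p form 1: cATCTTACtgggcagcattgga

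A few further isomiRs are shown, because they are named in the results below. Relative to form 1, 11 of the 31 sequences lost bases (DEL) only at the 3′ end, 6 gained bases (ADD) only there and 6 had a shifted 5′ end. A further 1, form 4 of miR-200b-3p, had the substitution C23T, but it is equally form 2 with a T added, and the letters alone cannot tell these apart. The remaining 7 are the forms 1.
miR-200b-3p form 2, 3′ DEL 1: tAATACTGcctggtaatgatga
miR-200b-3p form 4, C23T or form 2 with T added: tAATACTGcctggtaatgatgat
miR-200b-3p form 5, 5′ DEL 1: aATACTGCctggtaatgatgac
miR-200c-3p form 2, 3′ DEL 1: tAATACTGccgggtaatgatgg
miR-200c-3p form 3, 3′ DEL 2: tAATACTGccgggtaatgatg
miR-200a-3p form 3, 3′ ADD 2: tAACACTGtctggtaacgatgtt
No other sequence of the list had the seed of any member, so the seed sums below contain only the family.

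The libraries held 2029729 to 6402731 reads (median 3111079), of which 75.3% to 87.2% were reads of the listed sequences. The family took 0.472% to 1.82% of the listed reads (median 0.987%), or 11664 to 51234 reads per library. Counting error was therefore small against the differences between animals for the abundant arms. Levels are given as normalized read counts in CPM, that is, reads scaled to a common total of listed reads with TMM factors. Each read stands for 1 short RNA, so no correction for length was made, but sequences are captured with unequal efficiency and levels of different miRNAs are comparable only roughly.

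The epithelial origin of part of the tissue was visible outside the family. All 5 other epithelial miRNAs looked for (miR-205, miR-203, miR-182, miR-183 and miR-96) were found, with a summed level of 7442 ± 3077 (SD, n = 30), most of it miR-182 at 5911. The tissue was mixed. The 5 miRNAs of stroma and smooth muscle summed to 128541, of which miR-143 made up 123150, and the endothelial miR-126 was at 3535. Of the leukocyte list, 3 of 4 were found at a sum of 81.0 and miR-223 was not found by name. The 3 erythrocyte miRNAs summed to 1424. In striated muscle 3 of 5 were found at a sum of 4659, nearly all of it miR-1 at 4635, with miR-133a and miR-133b not found by name. In bulk tissue, fewer cells of a type and less RNA per cell cannot be told apart.

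Of the 5 embryonic miRNAs looked for, miR-367 and miR-371 to miR-373 were not found by name, but miR-302, known from pluripotent cells, was on the list. It is 1 of 17 listed sequences that carry a gene identifier in place of a miRNA name, none of them a member, and was matched by its sequence in the table of RT-PCR assays.
miR-302: tAAACGTGgatgtacttgcttt
Its level in PD20 was 2.44, 2.37, 4.57, 39.3, 17.1 and 41.2 CPM in replicates 1 to 6. In the other 24 libraries 22 had 0 reads of it and a pair of CD20 libraries had 1 and 2. Every PD20 library was thus above every other library, although the embryo and trophoblast had been taken off. The level of miR-302 therefore set PD20 apart from the other groups, while within PD20 it ran from 2.37 to 41.2 CPM. Its part in the differences between PD20 and the other groups given here was not tested.

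A single library, PD20 replicate 1, stood apart. Its stromal sum was 639414 CPM, where the next highest library had 213002, its muscle sum was 40186 CPM, and its miR-429-3p sum of 4.54 was the lowest of the 30. Without it the number of family sequences called was 0 for PD20 vs PD12, PD20 vs PD16 and PD20 vs CD20, as with it, and 0.802%, 0.458% and 1.03% of the list were called.

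The family as a whole had 10482 ± 2927 CPM (SD, n = 30), and miR-200c-3p and miR-200b-3p made up nearly all of it. The miR-200c-3p sum was 5209 ± 2099, or 49.7% of the family, and the miR-200b-3p sum was 4642 ± 1825, or 44.3%. The leading miR-200c-3p sequence ranked 29 in the whole list by level and the leading miR-200b-3p sequence 43. The other 5 arms were far lower. In order, miR-141-3p had 280 ± 203.3, miR-200a-3p 181 ± 111, miR-200a-5p 73.1 ± 29.03, miR-200b-5p 58.6 ± 37.1 and miR-429-3p 37.0 ± 23.9 (SD, n = 30 each). Of the neighbours in this order, the ranges of miR-200b-3p (1741 to 10967) and miR-141-3p (40.2 to 798) did not overlap, and all other neighbours overlapped.

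Summed by seed, the 15 sequences with AATACTG had 9854 ± 3028 and ranked 9 of the 258 seeds of the list, against 461.5 ± 293 and rank 46 for the 5 sequences with AACACTG. The 5p seed ATCTTAC, with 5 sequences, stood at 109.5. Among the listed sequences the seeds of the shifted forms were rare. ATACTGC had 30.1 in 2 sequences, TCTTACT 13.9 in 1, TCTTACC 8.42 in 2 and TAATACT 4.57 in 1. The ratio of AATACTG to AACACTG was 25.1 as a geometric mean but ran from 2.58 to 147.8 between libraries.

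Animals differed strongly, also within a group. From the lowest to the highest library, miR-429-3p spanned 24.6-fold, miR-141-3p 19.8-fold, miR-200c-3p 9.02-fold, miR-200a-3p 8.36-fold, miR-200b-5p 6.69-fold, miR-200b-3p 6.30-fold and miR-200a-5p 3.88-fold. The family sum spanned only 3.79-fold. Its mean was highest in CD16 (12763) and PD16 (12626), followed by PD12 (10519), PD20 (10309), CD12 (8667) and CD20 (7678). The order at both ends turned when the TMM factors were left out. Per listed reads the lowest was then CD12 (7251), below CD20 (8354), and PD16 (13228) was above CD16 (13098).

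**Figure D1:**
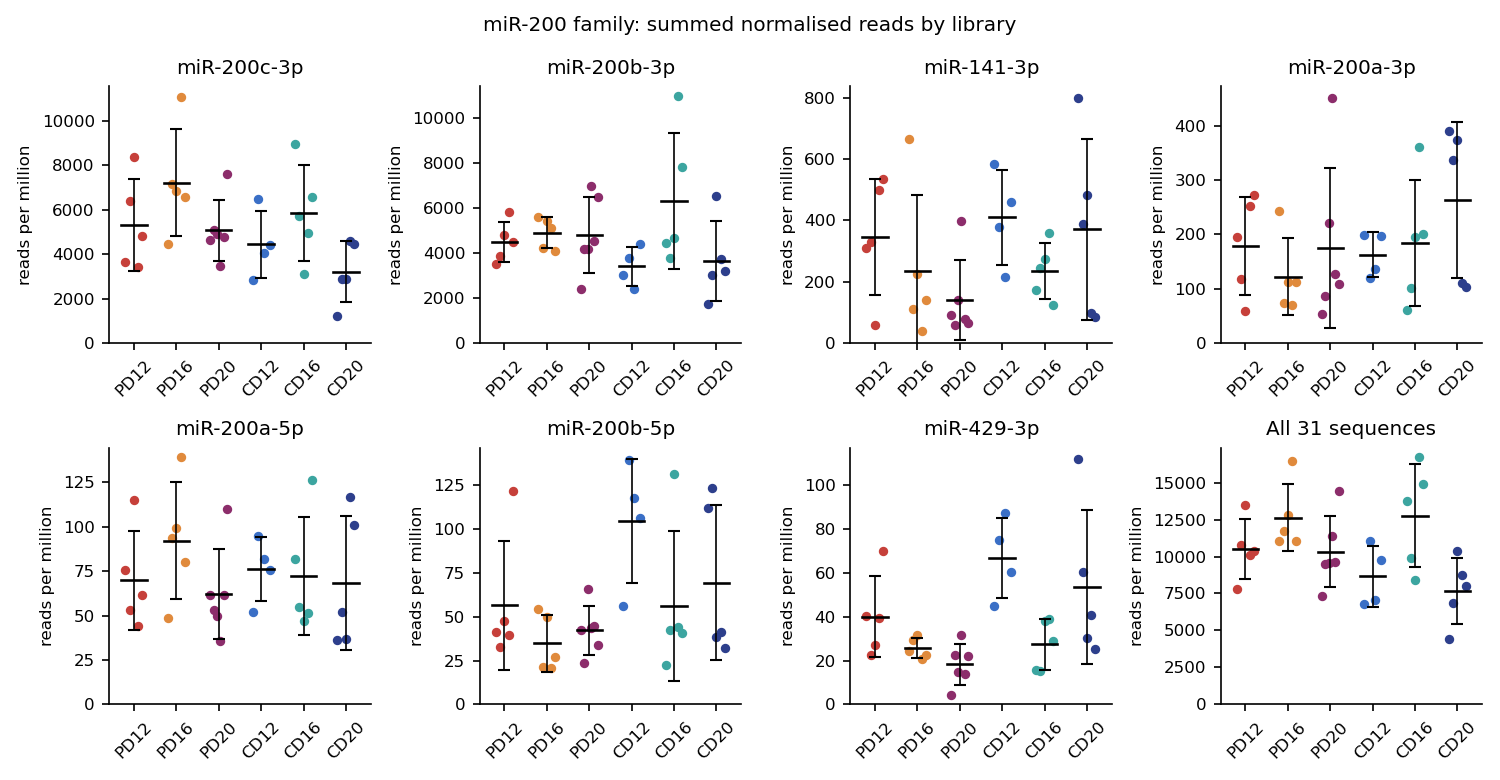
Normalized read counts in CPM (y axes, linear, from 0) of the 7 miRNA arms and of all 31 sequences in the 6 groups (x axes). Each dot is 1 animal and each bar the mean with its SD (n = 5, 5, 6, 4, 5 and 5 for PD12, PD16, PD20, CD12, CD16 and CD20). A lower error bar is cut off at 0 where the SD is larger than the mean. The miR-200c-3p and miR-200b-3p panels reach 11079 and 10967 CPM, the miR-429-3p panel 112 CPM, and in most panels the dots of all groups overlap.

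The miR-200c-3p sum was 3425, 3624, 4816, 6372 and 8391 in PD12 and 4437, 6581, 6854, 7152 and 11079 in PD16. In PD20 it ran from 3459 through a median of 4821 to 7590.3. In CD12 it was 2842, 4044, 4413 and 6479, in CD16 3094, 4931, 5704, 6591 and 8965, and in CD20 1228, 2862, 2898, 4441 and 4613. PD16 held the highest library and CD20 the lowest, and CD20 overlapped with every other group. Form 1 carried 88.6% of the arm and had 3019, 3221, 4161, 5660.5 and 7567 in PD12, 3934, 5862, 6019, 6322 and 9931 in PD16, and 2982 to 6710.4 with a median of 4337 in PD20. In the cyclic animals form 1 had 2491, 3581, 3946 and 5703 in CD12, 2701, 4384, 5084, 5879.5 and 8026 in CD16, and 951, 2359, 2497, 3972 and 4133 in CD20. It followed the sum of the arm.

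The miR-200b-3p sum was 3516, 3874, 4505, 4787 and 5829 in PD12 and 4105, 4219, 5108, 5437 and 5603 in PD16. The PD20 animals ran from 2418 through a median of 4359 to 6967. The CD12 animals had 2396, 3032, 3760.4 and 4422, those of CD16 3759.7, 4463, 4664, 7804 and 10967, and those of CD20 1741, 3031, 3197, 3724 and 6529. A pair of CD16 animals was above all others, and the remaining values of all groups lay together. Unlike miR-200c-3p, this arm was shared by 2 forms, form 1 with 52.0% and form 2, shorter by the last base, with 43.1%. Form 1 had 2154, 2225, 2276, 2902 and 3289 in PD12, 1796, 2124, 2377, 2868 and 3107 in PD16, and 998.5 to 3406 with a median of 1992 in PD20. In CD12 it had 1874, 2018, 2221 and 2937, in CD16 1936, 2269, 2299, 3139 and 5287, and in CD20 1251, 1962, 2057, 2210.2 and 3185. Form 1 was thus nearly level between the groups, and their ranges all overlapped.

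Form 2 of miR-200b-3p was less even. It had 431, 887, 1280.3 and 1344 in CD12 against 1296, 2146, 2333, 4224 and 5091 in CD16, with 1 CD16 animal inside the range of CD12. The ratio of form 1 to form 2 had a geometric mean of 1.33 (0.619 to 4.34 over 30 libraries). Form 1 was the more abundant in 4 of 4 CD12 and 5 of 5 CD20 animals, but in only 2 of 6 PD20 animals. In miR-200c-3p form 1 exceeded form 2 in all 30 libraries, by 8.91-fold (3.85 to 11.9).

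The seed sum AATACTG, which these arms dominate, was 7143, 9255, 9351, 10237 and 13148 in PD12 and 10030.2, 10678, 11371, 12292 and 16176 in PD16. PD20 values went from 7055 through a median of 9277 to 14086. CD12 values were 5890.3, 6503, 8869 and 10268, those of CD16 7758, 9449.8, 13417, 14362 and 15857, and those of CD20 3068, 5929, 7629, 8348 and 9412. CD20 lay lowest, but its upper values passed the lowest values of each other group except PD16, whose lowest library of 10030.2 was above all 5 of CD20.

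The miR-141-3p sum was 58.2, 309, 329, 499.7 and 534 in PD12 and 40.2, 111, 140.8, 225 and 664 in PD16. Values of PD20 ran from 58.0 through a median of 85.3 to 399. Values of CD12 were 216, 378, 459.6 and 585, those of CD16 123, 174, 245, 273 and 357, and those of CD20 84.3, 99.1, 387, 483 and 798. PD12, PD16, PD20 and CD20 each held both low and high animals, and all groups overlapped. Form 1, 83.3% of the arm, had 40.2, 271, 291, 428 and 484 in PD12, 27.9, 92.0, 117, 191 and 579 in PD16, and 41.5 to 306 with a median of 63.7 in PD20. In CD12 it had 184, 337, 406 and 497, in CD16 96.1, 154.7, 216, 224 and 275, and in CD20 60.0, 74.1, 281, 380.3 and 664. It showed the same split into low and high animals.

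The miR-200a-3p sum was 59.1, 118, 195, 252 and 273 in PD12 and 69.3, 74.3, 111, 113 and 243 in PD16. In PD20 the range was from 54.1 through a median of 118 to 452. In CD12 there were 119, 136, 197 and 198.9, in CD16 61.6, 101, 196, 199.8 and 361, and in CD20 103, 111, 337, 374 and 391. The highest animal was in PD20 and the groups overlapped throughout. Form 1, 80.0% of the arm, had 54.0, 90.7, 160.1, 174 and 209.7 in PD12, 51.9, 59.9, 84.7, 86.7 and 189.6 in PD16, and 42.9 to 393 with a median of 102 in PD20. In CD12 it had 87.1, 108, 164 and 169.8, in CD16 50.3, 81.3, 168, 172 and 288, and in CD20 78.6, 91.9, 261, 275 and 279. No group was apart from the others.

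The seed sum AACACTG of these arms was 117, 446, 503, 751 and 807 in PD12 and 109, 185, 252, 338 and 906 in PD16. In PD20 it ran from 143.7 through a median of 190.3 to 851. In CD12 it was 352, 497, 657 and 783, in CD16 235, 323, 346, 469 and 718, and in CD20 188, 209.9, 725, 857 and 1189. A single high animal each in PD16 and PD20 lay within the range of the 3 upper CD20 animals.

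The miR-429-3p sum was 22.7, 27.3, 39.3, 40.3 and 69.9 in PD12 and 20.9, 22.4, 24.3, 29.5 and 31.5 in PD16. The PD20 animals ran from 4.54 through a median of 18.5 to 31.5. The CD12 animals had 44.9, 60.2, 74.8 and 87.0, those of CD16 15.2, 15.9, 29.1, 38.2 and 38.9, and those of CD20 25.2, 30.3, 40.7, 60.3 and 112. All 4 CD12 animals were above all 5 CD16 animals, and PD20 overlapped with the lower end of CD20. Form 1, 64.8% of the arm, had 13.1, 16.2, 21.3, 24.7 and 53.5 in PD12, 9.68, 12.8, 12.9, 15.3 and 21.2 in PD16, and 3.84 to 15.4 with a median of 11.8 in PD20. In CD12 it had 29.6, 43.7, 58.8 and 63.0, in CD16 8.07, 8.87, 16.8, 22.6 and 23.2, and in CD20 16.2, 18.2, 30.6, 32.4 and 80.3. For form 1 the PD20 animals lay below all 5 CD20 animals, the nearest being 15.4 and 16.2.

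The miR-200a-5p sum was 44.1, 53.3, 61.6, 75.7 and 115 in PD12 and 48.9, 80.4, 93.7, 99.1 and 139 in PD16. PD20 values went from 35.9 through a median of 57.4 to 110.3. CD12 values were 52.0, 75.8, 81.8 and 95.1, those of CD16 47.2, 51.5, 55.1, 82.1 and 126.4, and those of CD20 36.4, 36.8, 51.8, 101 and 117. This arm had the narrowest range of the family and every group overlapped with every other. Form 1, 72.9% of the arm, had 27.1, 34.01, 37.5, 51.9 and 85.0 in PD12, 35.6, 57.1, 77.8, 78.5 and 115 in PD16, and 24.5 to 83.4 with a median of 43.0 in PD20. In CD12 it had 40.5, 52.8, 55.5 and 73.0, in CD16 28.3, 34.3, 36.2, 58.4 and 100.1, and in CD20 20.8, 24.2, 30.7, 71.9 and 88.0. Form 1 overlapped between groups as the sum did.

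The miR-200b-5p sum was 32.6, 39.7, 41.6, 47.6 and 122 in PD12 and 20.9, 21.2, 27.1, 50.1 and 54.6 in PD16. Values of PD20 ran from 23.7 through a median of 42.9 to 65.6. Values of CD12 were 55.9, 106, 118 and 139, those of CD16 22.3, 40.7, 42.5, 44.0 and 131, and those of CD20 32.4, 38.6, 41.2, 112 and 123. CD12 was above PD16 without overlap, and PD12 and CD16 each held 1 high animal. Form 1 made up 46.7% of the arm and had 17.9, 18.3, 20.0, 21.2 and 52.3 in PD12, 11.5, 13.6, 14.3, 26.2 and 28.4 in PD16, and 12.4 to 32.4 with a median of 19.8 in PD20. In CD12 it had 24.7, 42.5, 54.6 and 59.8, in CD16 9.95, 20.4, 20.7, 23.9 and 57.1, and in CD20 13.5, 17.1, 26.7, 50.4 and 53.8. It lies opposite the far more abundant 3p arm, and the 5p to 3p ratio was 0.0114 as a geometric mean (0.00402 to 0.0644).

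Within pregnancy, no sequence of the family passed the test between days. The comparison asks whether the family moved as the conceptus attached, and the main test, edgeR's quasi-likelihood F-test with Benjamini-Hochberg adjustment, called a sequence at an adjusted p under 0.05 with an absolute log2FC over 1. For PD16 vs PD12 it called 0 of the 31 (0.229% of the whole list was called), for PD20 vs PD12 0 (0.802%) and for PD20 vs PD16 0 (0.573%). At an unadjusted p under 0.05 there were 2, 2 and 1 members, where 18.7%, 18.7% and 14.2% of the list passed, and the edgeR likelihood ratio test and DESeq2 called 0 in each (2.75%, 5.27% and 2.41% of the list by the former, 2.86%, 5.27% and 1.72% by the latter).

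The member with the smallest p in the joint test against PD12 was miR-429-3p form 1. It went from 25.8 ± 16.2 in PD12 (SD, n = 5) to 14.4 ± 4.29 in PD16 (n = 5; log2FC −0.77, SE 0.406) and 11.02 ± 4.83 in PD20 (n = 6; log2FC −1.21, SE 0.388), with an adjusted p of 0.175 (edgeR). The arm sum gave a log2FC of −1.15 (SE 0.382, adjusted p = 0.195) for PD20 vs PD12, and −0.91 (SE 0.332) without PD20 replicate 1. For PD20 vs PD16 the smallest p was that of miR-200c-3p form 2, at 443 ± 136 (n = 6) and 668 ± 191 (n = 5), with a log2FC of −0.63 (SE 0.282, adjusted p = 0.318). Markers of other cell types moved too. The median log2FC of the 8 striated muscle sequences was 1.64 for PD20 vs PD12 and 2.21 for PD20 vs PD16. Of these 5 had an unadjusted p under 0.05 in each test (edgeR), beside 18.7% and 14.2% of the list. Among the 54 stromal sequences 20 had such a p for PD20 vs PD16, and 1 was called higher. Of the 34 other epithelial sequences 12 had such a p in the joint test against PD12 and 9 for PD20 vs PD16. The leukocyte sum was 55.8 in PD12, 83.2 in PD16 and 110 in PD20, with overlap. Their part in the family's values was not tested. The median log2FC over the 31 was −0.21 for PD16 vs PD12, −0.30 for PD20 vs PD12 and −0.25 for PD20 vs PD16, beside 0.05, −0.01 and −0.06 over the whole list. The log2FC was below 0 for 20, 23 and 20 of the 31, beside 46.6%, 50.7% and 54.5% of the list, and the groups did not overlap for 0 members in each, beside 1.83%, 3.32% and 1.72%.

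Within the cycle the main test also called 0 of the 31 for CD16 vs CD12 (0.115% of the list called), CD20 vs CD12 (0.458%) and CD20 vs CD16 (0.458%). At an unadjusted p under 0.05 there were 7, 7 and 6 members, beside 23.9%, 23.9% and 21.2% of the list. The member with the smallest joint p was miR-200c-3p form 3. It had 8.66, 16.4, 20.8 and 22.001 in CD12, 17.5, 42.9, 67.7, 88.5 and 94.1 in CD16, and 15.1, 23.3, 32.4, 47.5 and 51.2 in CD20. All but 1 of the CD16 animals were above CD12. Its log2FC was 1.96 for CD16 vs CD12 (SE 0.529) and 0.97 for CD20 vs CD12 (SE 0.514), with an adjusted p of 0.121 (edgeR).

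Other tests made 2 calls for CD16 vs CD12. The likelihood ratio test of edgeR called miR-200c-3p form 3 (adjusted p = 0.0298) and miR-200b-3p form 2 (log2FC 1.70, adjusted p = 0.0388). DESeq2 called the same forms, at log2FC 1.92 (adjusted p = 0.0282) and 1.64 (adjusted p = 0.0405). These tests called 5.27% and 5.84% of the whole list in this comparison. In the arm of form 3, the still shorter form 5 had a log2FC of 1.99 (SE 0.688), form 1 one of 0.52 (SE 0.445) and the sum one of 0.45 (SE 0.433), none of them called. Without CD16 replicate 3 the main test called 1 member, miR-200c-3p form 3 (log2FC 2.19, adjusted p = 0.0492), beside 0.916% of the list.

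For miR-429-3p the values of CD16 lay below those of CD12. The sum was 27.5 ± 11.6 (SD, n = 5) there and 66.7 ± 18.2 (n = 4) in CD12, with a log2FC of −1.22 (SE 0.473, adjusted p = 0.206, edgeR), and the groups did not overlap. Its form 1 was the only family sequence without overlap in CD16 vs CD12, where 5.5% of the list did not overlap in either direction, at a log2FC of −1.54 (SE 0.504, adjusted p = 0.146). From CD16 to CD20 the smallest p was that of miR-200b-3p form 4 (C23T, or form 2 with T added), with a mean of 73.5 ± 46.3 and 29.1 ± 21.3 (n = 5 each; log2FC −1.40, SE 0.515, adjusted p = 0.1247). The miR-200c-3p sum had a log2FC of −0.97 (SE 0.409, adjusted p = 0.175) and the AATACTG seed −0.93 (SE 0.379, adjusted p = 0.153) in that comparison. Markers of other cell types moved between these groups too. The leukocyte sum was 122 in CD20 (78.6 to 206.4) and 48.2 in CD16 (23.5 to 73.2), and the endothelial miR-126 was 4604 (4264 to 4956) and 3197 (2289 to 3879), each without overlap. Against CD12, at 54.7 (33.4 to 77.3) and 2602 (1782 to 3363), CD20 was also higher in both without overlap, and lower in the other epithelial miRNAs (4909 against 7627). The part of these in the family's values was not tested. Without CD20 replicate 3 the main test called 1 member in it, miR-200b-3p form 4 (log2FC −1.89, adjusted p = 0.0484), beside 4.12% of the list. The likelihood ratio test and DESeq2 called 0 in both comparisons with CD20 (5.73% and 6.41% of the list by the former, 6.41% and 8.25% by the latter). The median log2FC over the 31 was 0.30 for CD16 vs CD12, 0.00 for CD20 vs CD12 and −0.26 for CD20 vs CD16, beside 0.03, 0.09 and −0.03 over the list. It was below 0 for 13, 15 and 18 of the 31, beside 49.1%, 45.8% and 51.2% of the list, and 0 members were without overlap in the comparisons of CD20 with CD12 and with CD16, beside 4.47% and 4.93%.

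Between pregnant and cyclic animals of the same day, the main test called 0 of the 31 on each day. On D12 and D16 it called 0% of the whole list as well, and on D20 1.49%. At an unadjusted p under 0.05 there were 2, 1 and 7 members on D12, D16 and D20, beside 6.07%, 10.9% and 28.5% of the list. The likelihood ratio test and DESeq2 called 0 on D12 (0.115% and 0% of the list) and on D16 (0.573% and 0.802%). On D12 the smallest p belonged to miR-200c-3p form 3, given library by library in the cycle for CD12, with 30.5, 32.1, 32.2, 60.5 and 64.2 in PD12. Every PD12 animal was above every CD12 animal. In 2.18% of the list the groups did not overlap, counting both directions. The means were 43.9 ± 16.9 (SD, n = 5) and 16.96 ± 6.03 (n = 4), with a log2FC of 1.35 (SE 0.420, adjusted p = 0.678, edgeR). On D16 the smallest p was that of miR-200b-3p form 4, at 39.9 ± 12.8 in PD16 and 73.5 ± 46.3 in CD16 (n = 5 each; log2FC −0.90, SE 0.416, adjusted p = 0.430).

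On D20 the low miR-429-3p of the implantation sites came closest to a call. Form 1 had 11.02 ± 4.83 in PD20 (SD, n = 6) and 35.5 ± 26.04 in CD20 (n = 5), a log2FC of −1.70 (SE 0.466, adjusted p = 0.0581, edgeR), and was the only member without overlap, beside 4.81% of the list in either direction. The arm sum had 18.3 ± 9.25 and 53.6 ± 35.1, a log2FC of −1.54 (SE 0.474, adjusted p = 0.0643), and −1.32 (SE 0.450) without PD20 replicate 1. The value for CD20 contained 1 animal at 112. Markers of cell types were also compared on D20. The striated muscle sum was 9980 in PD20 (1416 to 40186) and 3082 in CD20 (1111 to 8771), with overlap. At an unadjusted p under 0.05 (edgeR) were 5 of 8 muscle and 16 of 54 stromal sequences, beside 28.5% of the list. The stromal share was near that of the list. Of erythrocyte, endothelial and leukocyte sequences 6 of 16, 4 of 17 and 2 of 9 were, the endothelial and leukocyte shares being below that of the list. Of the 34 other epithelial sequences 18 were. The part of these in the family's values was not tested. The likelihood ratio test and DESeq2 each called 3 of the 31 on D20, where they called 14.2% and 15% of the list. These were miR-429-3p form 1 (adjusted p = 0.0133 and 0.0127), miR-200a-3p form 3 (log2FC −1.51, adjusted p = 0.0368, and −1.53, adjusted p = 0.0327) and miR-200c-3p form 3 (log2FC 1.13, adjusted p = 0.0440, and 1.14, adjusted p = 0.0273).

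These 3 sequences did not share a sign. miR-200a-3p form 3 had 5.40 to 22.1 with a median of 6.90 in PD20 and 10.5, 11.1, 26.1, 34.9 and 59.1 in CD20. miR-200c-3p form 3 had 41.9 to 115 with a median of 76.1 in PD20, against 15.1 to 51.2 in CD20. The former was mostly lower and the latter mostly higher in PD20, each with overlap. The miR-141-3p sum had a log2FC of −1.38 (SE 0.615, adjusted p = 0.154) and the miR-200c-3p sum one of 0.68 (SE 0.366, adjusted p = 0.225). By seed, AATACTG was at a log2FC of 0.65 (SE 0.333, adjusted p = 0.195) and AACACTG at −0.87 (SE 0.561, adjusted p = 0.305). Single libraries decided whether the main test called anything on D20. The PD20 libraries highest in miR-302 were replicates 4 (39.3) and 6 (41.2), and their miR-141-3p sums were 399 and 65.0. Without PD20 replicate 4, which was high in miR-141-3p and in miR-302 (39.3), 6 of the 31 were called beside 13.3% of the list, as were the miR-141-3p sum (log2FC −2.07, adjusted p = 0.0302), the miR-429-3p sum (log2FC −1.79, adjusted p = 0.0307) and the AACACTG sum (log2FC −1.58, adjusted p = 0.0477), beside 13.2% of the table of arm sums and 15.1% of the seeds. Without CD20 replicate 4 or 5, 3 and 1 members were called, beside 11.9% and 6.76% of the list, and the miR-429-3p sum as well (log2FC −1.63 and −1.75, adjusted p = 0.0473 and 0.0448), beside 12.1% and 7.77% of the table of arm sums. Over the 31 the median log2FC was 0.20 on D12, −0.23 on D16 and −0.23 on D20, beside 0.04, 0.03 and −0.03 over the list. It was below 0 for 10, 21 and 19 of the 31, beside 47.4%, 48.7% and 51.4% of the list, and on D16 0 members were without overlap, beside 1.72%.

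The summed tables gave no calls either. With the isomiRs of each arm added up, the main test called 0 of the 7 arms in every comparison. Of the 849 rows of that table it called 0.236%, 0.824% and 0.589% for PD16 vs PD12, PD20 vs PD12 and PD20 vs PD16, 0.236%, 0.824% and 0.471% for the same days of the cycle, 0% for P vs C on D12 and D16, and 1.53% on D20. With all listed sequences added up by seed, it called 0 of the family's 7 seeds in every comparison. Of the 258 seeds it called 0%, 0.388% and 1.16% in pregnancy, 1.55%, 1.94% and 4.65% in the cycle, 0% for P vs C on D12 and D16, and 9.69% on D20. At an unadjusted p under 0.05 there were between 0 and 2 arms in a comparison, beside 20%, 20% and 15% of the rows in pregnancy, 24.1%, 24.1% and 21.7% in the cycle, and 6.01%, 11.7% and 28.4% for P vs C on D12, D16 and D20. Of the family's seeds there were 2 for CD20 vs CD16 and 0 in each of the others, beside 20.2%, 20.2% and 15.1%, 23.3%, 23.3% and 22.9%, and 4.26%, 10.1% and 29.5% of all seeds in the same order. The likelihood ratio test and DESeq2 called 1 arm, miR-429-3p for PD20 vs CD20 (log2FC −1.54, adjusted p = 0.0236, and −1.58, adjusted p = 0.0208), where they called 14.3% and 15.2% of the rows of that table, so that 1 of 7 was near the background. In the other 8 comparisons they called 0 arms, beside 0.118% to 7.18% of the rows by the former and 0% to 8.72% by the latter. They called 0 of the family's seeds in every comparison. Of all seeds the likelihood ratio test called 1.55%, 3.88% and 1.55% in pregnancy, 5.81%, 6.2% and 10.1% in the cycle, and 0%, 1.16% and 16.3% for P vs C on D12, D16 and D20. DESeq2 called 1.16%, 3.1% and 1.55%, then 5.81%, 6.2% and 10.5%, and 0%, 1.16% and 15.1% in the same order. Whether the difference between pregnant and cyclic animals itself changed with the day was tested over all 30 libraries. It was called for 0 members from D12 to D16, from D12 to D20 and from D16 to D20, where 0%, 0.115% and 2.41% of the list were called, and 2, 2 and 5 members had an unadjusted p under 0.05 (8.13%, 16.4% and 19.1% of the list). The smallest p among members was that of miR-200b-3p form 4 from D16 to D20 (log2FC difference 1.65, SE 0.601, adjusted p = 0.138). For the miR-429-3p sum this difference was −1.43 (SE 0.587, adjusted p = 0.167). Without CD20 replicate 3 it was called for 2 members from D16 to D20, beside 3.67% of the list.

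**Figure D2:**
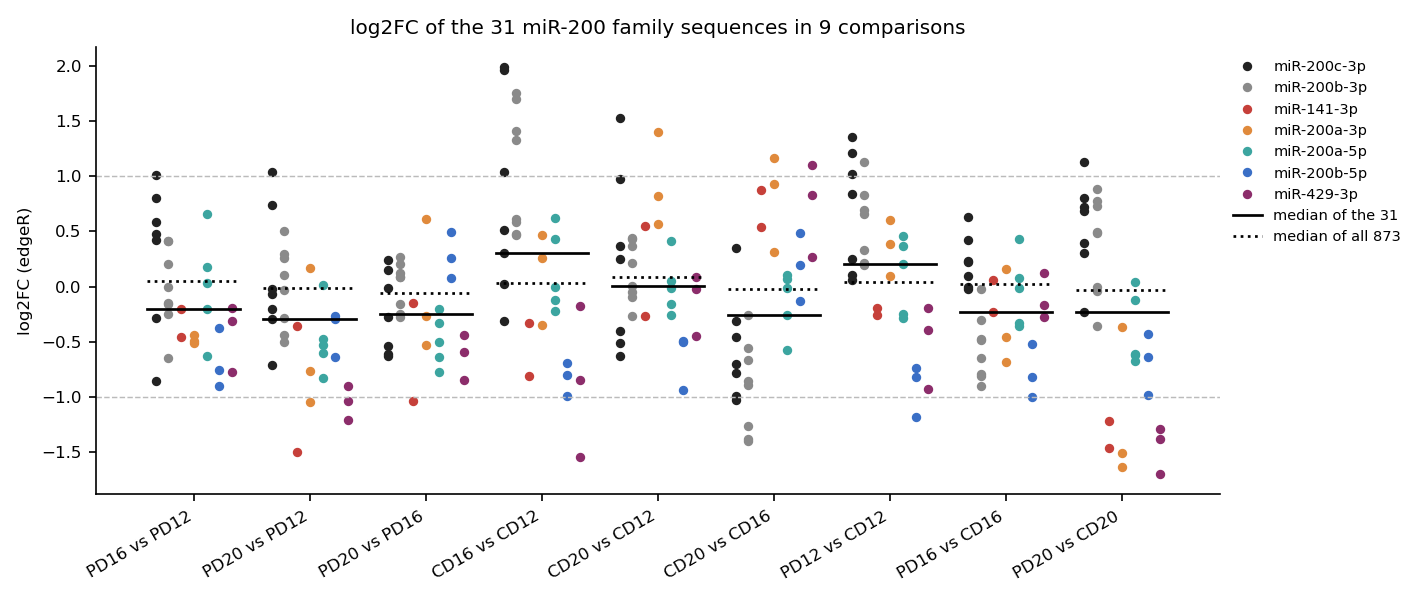
The log2FC of each of the 31 sequences (dots, by miRNA arm) in the 9 comparisons, with the first-named group in the numerator. The solid line is the median of the 31, the dotted line the median of all listed sequences, and the dashed lines mark −1 and 1. The dots spread on both sides of 0 in every comparison, and miR-429-3p sits at the lower end for PD20 vs CD20.

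Ratios of reads within a library do not depend on its size, so 7 ratios were compared over the 9 comparisons by exact two-sided permutation tests, 63 in all with adjustment over all of them. Of these, 13 had a p under 0.05 and 3 an adjusted p under 0.05. The balance of the clusters, miR-200b, miR-200a and miR-429 reads over miR-200c and miR-141 reads, was 0.913 as a geometric mean (0.482 to 2.17, above 1 in 9 of 30 libraries). It did not pass in any comparison, nor did the ratio of the 3p seeds. For miR-200a the 5p arm, usually the lesser one, stood at 0.446 of the 3p arm (0.0794 to 2.01) and was above it in 7 of 30 libraries. The 5p to 3p ratio of miR-200b had a log2 difference of −1.90 for CD16 vs CD12 (adjusted p = 0.192, exact permutation test).

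The share of reads with a shifted 5′ end was among the ratios that differed. In PD12 it was 0.473, 0.582, 0.641, 0.719 and 0.803 shifted reads per 100 unshifted, and in PD16 0.317, 0.324, 0.406, 0.413 and 0.444. In PD20 the range was from 0.374 through a median of 0.437 to 0.486. In CD12 there were 0.558, 0.656, 0.907 and 0.918, in CD16 0.313, 0.494, 0.554, 0.618 and 0.834, and in CD20 0.596, 0.658, 0.672, 0.731 and 0.891. All PD20 animals lay below all CD20 animals, and all PD16 animals below all PD12 animals. The most abundant of the 6 shifted forms was miR-200b-3p form 5 at 26.3 CPM, whose loss of the first base turns the seed AATACTG into ATACTGC, followed by the like form of miR-200b-5p at 13.9.

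For PD20 vs CD20 the geometric means were 0.435 and 0.703 per 100, a log2 difference of −0.69, with an exact permutation p of 0.00216, the smallest that 6 against 5 animals allow (adjusted p = 0.0455). That adjusted p was taken over all 63 tests, in which the 3 that passed share the same p. The others that passed belong to a ratio with an added A (below), chosen after the data were seen. The call of the shifted ends depends on this tie, and no adjustment over the remaining ratios alone is given here. For PD16 vs PD12 the log2 difference was −0.75 with an exact permutation p of 0.00794, again the smallest possible (adjusted p = 0.0779), and for PD20 vs PD12 it was −0.54 (exact permutation p = 0.00433, adjusted p = 0.0682). When sequences outside the list that share their first 17 bases with a member were counted too, the PD20 vs CD20 difference was −0.48 with an adjusted p of 0.390, so this result holds for the listed sequences only. Without PD20 replicate 1 it was −0.68, and with any 1 library of either group left out the adjusted p was at least 0.0714, above the threshold.

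Reads outside the list were not rare. A further 1283 sequences shared their first 17 bases with a member and held 280043 reads, against 802053 of the members. They came to a median of 32.6% of the members' reads per library (23.5% to 55.3%). The 3 most abundant of these are shown because each was above most of the listed forms.
miR-200b-3p form 2 with A added: tAATACTGcctggtaatgatgaa
miR-200b-3p form 1 with T added: tAATACTGcctggtaatgatgact
miR-200c-3p form 1 with A added: tAATACTGccgggtaatgatggaa
The first is equally form 1 with another last base. The 3 had 1017 ± 537, 707 and 361 ± 175 CPM of listed reads, and the first and the last would have ranked 66 and 123 in the list. Unlisted reads also carried a shifted seed. The following sequence of miR-200b-3p, form 5 with T added, had the seed ATACTGC and 140.3 ± 55.4 CPM (SD, n = 30), with reads in all 30 libraries, more than the 30.1 of the listed sequences with that seed.
miR-200b-3p form 5 with T added: aATACTGCctggtaatgatgact
Taken over the arm, reads with 1 added A amounted to 27.1% of the listed reads of miR-200b-3p, 25.1% of those of miR-200a-3p and 7.92% of those of miR-200c-3p. An added T came to 18.9% in miR-200b-3p and 3.90% in miR-200c-3p. The study kept only sequences fully identical to a reference sequence and left non-template changes of isomiRs aside. In miR-200b-3p and miR-200c-3p the listed form longer than form 1 by 1 base at the 3′ end, form 6 of each, ended in G, not in A or T. Whether an added base came from the genome or from tailing was not tested, since no precursor sequence was used here.

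In miR-200c-3p the reads with 1 added A were more frequent at the implantation sites. Per 100 listed reads of the arm they were 6.22, 6.48, 7.09, 7.56 and 11.6 in PD12 and 6.11, 6.66, 6.88, 6.96 and 7.01 in PD16. In PD20 they ran from 10.8 through a median of 12.3 to 13.9. They were 3.62, 4.27, 5.64 and 7.29 in CD12, 6.82, 7.54, 7.76, 8.89 and 10.1 in CD16, and 4.35, 4.79, 4.87, 5.65 and 7.16 in CD20. All 6 PD20 animals were above all CD12, CD16, CD20 and PD16 animals, and 1 PD12 animal at 11.6 was within their range.

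As a log2 difference this was 1.20 for PD20 vs CD20 and 0.85 for PD20 vs PD16, each with an exact permutation p of 0.00216, the smallest possible for 6 against 5 (adjusted p = 0.0455 each). For PD20 vs PD12 it was 0.68 (adjusted p = 0.0779, exact permutation test). Without PD20 replicate 1 the differences were 1.19 and 0.85, but with any 1 library of the compared groups left out the adjusted p was at least 0.0714 and 0.075, so neither passed. Both ratios with an added A were chosen after the sequences outside the list had been seen. For miR-200b-3p the ratio ran from 21.8 through a median of 41.0 to 63.6 per 100 in PD20 and was 15.6, 18.004, 20.0, 21.05 and 24.3 in CD20, a log2 difference of 1.04 (exact permutation p = 0.00866, adjusted p = 0.0779). Of the PD20 animals only the lowest, at 21.8, was within the range of CD20. The other groups reached further into the range of PD20, with 18.7 to 29.6 in PD12 and 20.4 to 34.1 in PD16. In CD12 the ratio ran from 15.9 to 41.7, above the PD20 median, and in CD16 from 16.1 to 36.4.

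The frequency of the added A was set beside the rest of the list. Of 245 listed sequences with reads in every library both without and with 1 added A outside the list, 2 (0.816%) were higher without overlap in PD20 than in CD20, and 5 (2.04%) than in PD16. Of the 12 members among the 245, 1 was so in each case, miR-200c-3p form 1, at ratios of 0.121 in PD20, 0.0487 in CD20 and 0.0649 in PD16. The median log2 difference of all 245 was −0.00 for PD20 vs CD20 but 0.29 for PD20 vs PD16, where 72.2% were higher. That of the 12 members was 0.33 and 0.47. As given above, miR-302 was higher in all 6 PD20 libraries than in any other.

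**Figure D3:**
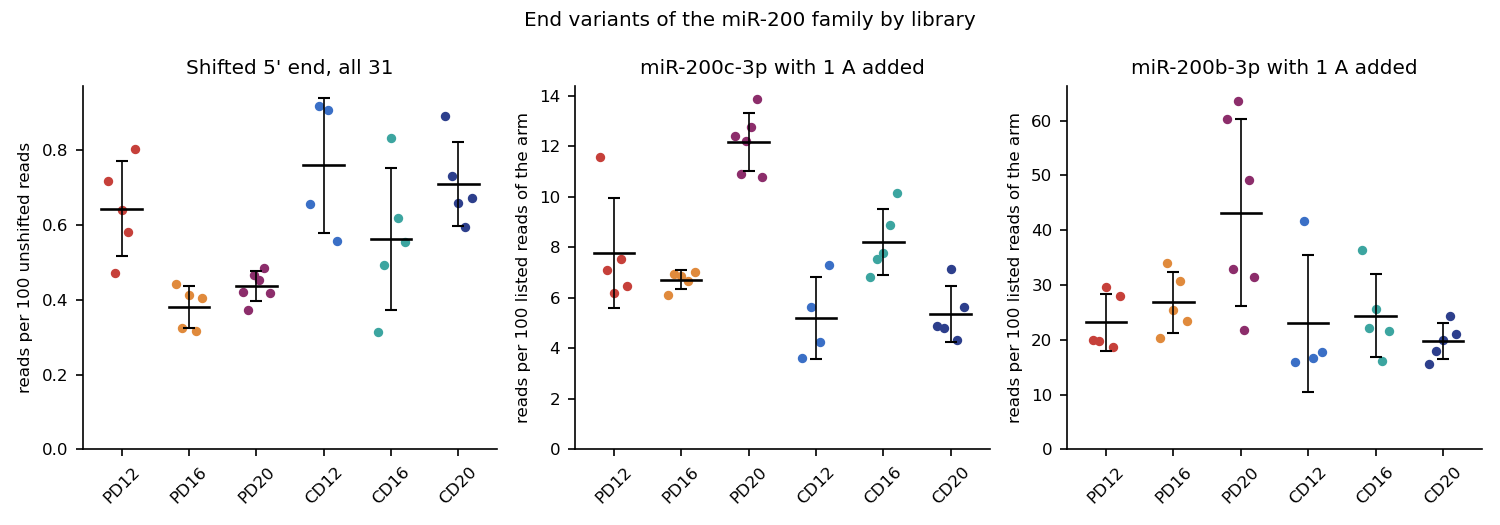
Reads with a shifted 5′ end per 100 unshifted reads of the listed family, and reads with 1 added A outside the list per 100 listed reads of miR-200c-3p and of miR-200b-3p (y axes), in the 6 groups (x axes). Each dot is 1 animal. In the first panel the PD20 dots (0.374 to 0.486) lie below the CD20 dots (0.596 to 0.891), and in the second the PD20 dots (10.8 to 13.9) lie above them (4.35 to 7.16).

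Between animals the arms followed neither their clusters nor their seeds throughout. Over the 30 libraries, 21 pairs of arm sums were correlated on the log2 scale, with permutation tests adjusted over the 21. miR-141-3p and miR-200a-3p, which share the seed AACACTG but not a cluster, rose and fell together (r = 0.758, adjusted permutation p = 7e-05; rho = 0.784; r = 0.730 without the 2 most distant libraries). The raw p of 1e-05 behind this is the smallest the resampling could give. miR-141-3p and miR-200c-3p, from the same cluster, ran against each other (r = −0.647, adjusted permutation p = 0.0003; rho = −0.649; r = −0.612 without 2 libraries). The same held of miR-200a-3p and miR-200c-3p (r = −0.716, adjusted permutation p = 7e-05; rho = −0.680; r = −0.691 without 2).

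Within the cluster of miR-200b, miR-200a and miR-429 some arms went together and others did not. The main arm, miR-200b-3p, had r = −0.320 with miR-200b-5p, −0.163 with miR-429-3p, 0.215 with miR-200a-3p and 0.062 with miR-200a-5p. For miR-200a-5p r was −0.277 with miR-200b-5p and −0.088 with miR-429-3p. None of these passed, whereas miR-200b-5p rose with miR-141-3p of the other cluster (r = 0.567, adjusted permutation p = 0.00282). miR-429-3p rose with miR-200b-5p (r = 0.643, adjusted permutation p = 0.00028; rho = 0.575; r = 0.626 without 2 libraries) and with miR-200a-3p (r = 0.541, adjusted permutation p = 0.00378; rho = 0.556; r = 0.513 without 2). miR-200a-3p rose with miR-200b-5p (r = 0.491, adjusted permutation p = 0.011; rho = 0.510; r = 0.494 without 2). By seed, miR-429-3p carries AATACTG but rose with miR-141-3p (r = 0.571, adjusted permutation p = 0.00158; rho = 0.620; r = 0.573 without 2) and fell with miR-200c-3p (r = −0.471, adjusted permutation p = 0.0152; rho = −0.539; r = −0.309 without 2).

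The arms of 1 precursor could also part. miR-200a-5p and miR-200a-3p had r = −0.665 (adjusted permutation p = 0.00028; rho = −0.691; r = −0.583 without 2 libraries), and miR-200a-5p went with miR-200c-3p (r = 0.722, adjusted permutation p = 7e-05; rho = 0.699; r = 0.675 without 2). After the group means were taken off, with no test run on these values, r was 0.815 for miR-141-3p with miR-200a-3p, −0.757 for miR-141-3p with miR-200c-3p, −0.692 for miR-200a-3p with miR-200c-3p, −0.674 for the arms of miR-200a and 0.798 for miR-200a-5p with miR-200c-3p. For miR-429-3p it was 0.375 with miR-141-3p, 0.613 with miR-200a-3p, 0.524 with miR-200b-5p and −0.425 with miR-200c-3p, and for miR-200a-3p with miR-200b-5p it was 0.479. miR-200b-3p and miR-200c-3p, the main arms, went together only weakly (r = 0.397, adjusted permutation p = 0.0481), and r was 0.207 without the 2 most distant libraries, so that this relation rested on them. The sums of a library share 1 scaling factor.

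**Figure D4:**
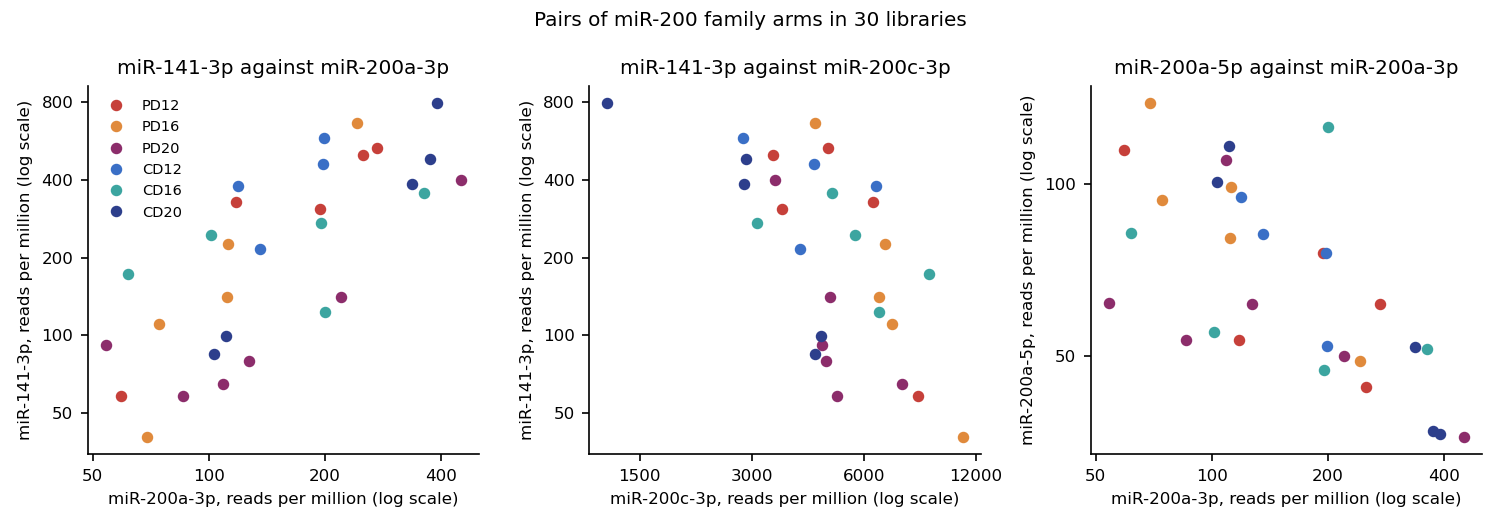
Pairs of arm sums in CPM (both axes logarithmic), with 1 dot per library coloured by group (30 libraries). miR-141-3p rises with miR-200a-3p (r = 0.758), falls with miR-200c-3p (r = −0.647), and miR-200a-5p falls as miR-200a-3p rises (r = −0.665), with animals of each group spread along the trend.

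Properties of the whole library were set beside the 3p seeds, after the data were seen. Mean read length ran from 22.2 to 22.6 bases and GC content from 39.8% to 42.6%. The AACACTG sum fell with mean read length (r = −0.556, permutation p = 0.00151, adjusted over 6 relations 0.00906; rho = −0.504; r = −0.460 without 2 libraries) and rose with GC content (r = 0.446, permutation p = 0.0143, adjusted 0.0429; rho = 0.480; r = 0.603 without 2). It had no such relation with total reads (r = −0.063). For AATACTG r was 0.103, 0.231 and −0.248 with these properties, and none passed. What part read length and base composition have in these relations was not tested.

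Among the marker lists, over 12 relations and leaving out the embryonic list, which had reads almost only in PD20, AACACTG fell as the striated muscle sum rose (r = −0.564, adjusted permutation p = 0.00828; rho = −0.628; r = −0.595 without 2 libraries). For the other epithelial miRNAs r was 0.374 with AATACTG and −0.375 with AACACTG (adjusted permutation p = 0.118 for each). AATACTG and the leukocyte sum had r = −0.473 (adjusted permutation p = 0.0478), which was −0.221 without the 2 most distant libraries and so rested on them. The rank correlation of AATACTG with the stromal sum passed (rho = −0.478, adjusted permutation p = 0.0472) and r did not (r = −0.370, adjusted permutation p = 0.118). By group, the other epithelial miRNAs averaged 9046 in PD20 (4534 to 16440, n = 6) and 4909 in CD20 (3213 to 6219, n = 5), with overlap. Most of this was miR-182, at 7178 ± 4144 (SD) in PD20 and 3897 ± 1241 in CD20. Of the 34 sequences of this marker list, the main test called 0 higher and 3 lower in PD20 than in CD20, beside 1.49% of all listed sequences. The median log2FC of the 34 was 0.94. The 3 were forms of miR-205, the most abundant of them at 4.26 ± 4.19 in PD20 (n = 6) and 31.7 ± 12.9 in CD20 (n = 5; log2FC −2.92, adjusted p = 0.0128, edgeR). What part the makeup of the tissue has in the levels of the family was not tested.

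The listed sequences most like each 3p seed sum over the 30 libraries were sought among 528 others with a mean of at least 10 CPM, by Pearson's r of log2 values. The median r of all 528 was 0.02 for AATACTG and −0.02 for AACACTG. Closest to AATACTG was a form of miR-30d (r = 0.780), followed by forms of miR-9-1 (0.763), let-7a-1 (0.747), let-7a-3 (0.735) and miR-183 (0.730), the last itself on the epithelial list. Closest to AACACTG was a form of miR-30a (r = 0.920), followed by miR-374a (0.908), miR-30e (0.907), miR-191 (0.858) and miR-10a (0.835). The leading sequence of each ranking is shown, because both begin with the same seed, that of the miR-30 family.
miR-30d, most like AATACTG: tGTAAACAtccccgactggaagct
miR-30a, most like AACACTG: tGTAAACAtcctcgactgga
When the group means were taken off first, 5 of the 5 closest to AACACTG stayed in the list of 5 and 2 of the 5 closest to AATACTG.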

How the data were processed

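The data are 30 small RNA libraries of endometrial tissue, each from a different animal. The authors joined the reads of 2 runs, dropped reads of low base quality, removed adapters, discarded reads shorter than 17 bases and collapsed identical reads. They deposited, for each library, the raw count of reads of every distinct sequence, with no alignment, annotation or normalization. Versions of those tools were not given in the sources used here.

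The sequences and names came from the study's list of annotated sequences (the 31 members and 842 others), which were joined to the counts by exact match. Marker miRNAs were matched by name, except miR-302, which was matched by sequence after the data were seen. The 31 members, the marker lists, the ratios and the tests were chosen with earlier results of these data known. Ends of an isomiR were read against the most abundant sequence of its arm. No genome, precursor or mature miRNA reference was used, so genomic positions are not given. Library size was the sum of the listed reads, scaled by TMM in edgeR 4.0.16 (R 4.3.3). Days 16 and 20 were tested jointly against day 12 within pregnancy and within the cycle by the quasi-likelihood F-test, D20 vs D16 as a single contrast, and P vs C in a separate fit per day (prior count 0.125). The SE is the size of the log2FC divided by the square root of F. All listed sequences entered each fit and each Benjamini-Hochberg adjustment. The same fits were run on a table of 849 rows with the isomiRs of each family arm summed, and on the sums of 258 seeds. These steps were tested on simulated data.

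Ratios were compared by exact permutation of animals, and correlations of log2(CPM + 1) by 100000 resamples (Python 3.11.15, scipy 1.17.1). The genes given library by library were, by a set rule, form 1 of each arm, the arm sums and the 3p seed sums. In each comparison the member with the smallest p was named. Other forms and arms, and other values by library, were picked after their values were seen. The labels call the animals of a group biological replicates. No library was a copy of another of its group (chi-square per degree of freedom 69.1 to 2075 over 61 pairs, which sets them against counting error only). Alternatives were the likelihood ratio test, DESeq2 1.42.0, other scalings and filters, 1 fit of all libraries, a replicate block and each library left out in turn.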

Additional observations from a re-analysis of the deposited data

Results flagged for a closer look

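In 7 of 54 groups looked at (9 sums in 6 groups), 1 animal stood apart from the rest of its group. The rule assumed that chance gives about 1 in 20, which was not derived for groups of this size. The 54 are not independent, since the AACACTG sum contains the miR-141-3p and miR-200a-3p sums. The miR-141-3p sum of PD20 replicate 4 was 399 CPM, against 140.8 in the next animal and 58.0 in the lowest. The AACACTG seed sum of the same library was 851, against 362 and 143.7. In PD16 replicate 1 the AACACTG sum was 906, against 338 and 109, and its miR-200a-3p sum was 243, against 113 and 69.3. The miR-200a-5p sum of PD20 replicate 6 was 110.3, against 61.8 and 35.9. The miR-200b-5p sum was 122 in PD12 replicate 5, against 47.6 and 32.6, and 131 in CD16 replicate 3, against 44.0 and 22.3.

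Reads outside the list were also flagged. Sequences that share their first 17 bases with a member but were not on the list came to 32.6% of the members' reads in the median library. The same share for the other 842 listed sequences is not given here, so whether it is particular to the family was not tested. Over the whole libraries, listed sequences took 79.0% of all reads in the median library.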

How the results depend on the processing

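No called result changed sign under the alternatives that were run. Under the likelihood ratio test and DESeq2 the number of family sequences called was 2 and 2 for CD16 vs CD12 and 3 and 3 for PD20 vs CD20, in place of 0. In 1 fit of all libraries it was 3 and 1, beside 4.01% and 11.2% of the list. The miR-429-3p sum of PD20 vs CD20 passed the threshold under these 3 alternatives (log2FC −1.54, −1.58 and −1.54). Libraries left out in turn gave 0 to 1 calls for CD16 vs CD12 and for CD20 vs CD16, 0 to 6 for PD20 vs CD20 and 0 to 2 for the change of the P vs C difference from D16 to D20. For PD20 vs CD20 the log2FC then ran from −2.07 to −0.89 for the miR-141-3p sum, from −1.79 to −1.10 for the miR-429-3p sum and from −1.58 to −0.56 for the AACACTG sum. The shifted to unshifted ratio ran from −0.75 to −0.61 and that of miR-200c-3p with an added A from 1.13 to 1.31, with adjusted p above 0.05 in each case, since fewer animals raise the smallest p the permutations allow. With sequences sharing 17 bases the shifted to unshifted difference was −0.48. With all deposited reads as library size and no TMM factors the family level in CD12 was 5791 in place of 8667, and CD12 and not CD20 (6698) was lowest. Listed reads with no TMM factors turned this order too (7251 and 8354), and all deposited reads with TMM factors did not (6929 and 6161), both tried after the data were seen. The causes of these changes were not tested.

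The replicate numbers do not pair the animals: over 42 pairs of same-numbered animals r of their deviations ran from −0.697 to 0.709, and in 0 of 9 comparisons were all pairs above 0.1. With the replicate number as a block, the number called was 0 in each of the 9 comparisons, beside 0% of the list in 5 of them and 0.115% to 0.573% in the other 4, and the miR-429-3p sum of PD20 vs CD20 had a log2FC of −1.49 (adjusted p = 0.252, edgeR). The rarest sums reached low values, such as miR-429-3p at 4.54 CPM in PD20 replicate 1. That library held 5638581 reads, where the median was 3111079, and the cause of its low value was not tested.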
